A study of Mus musculus with 2 samples.

Results

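Cdkn1a-high glioma cells are those that devote the largest share of their RNA to Cdkn1a, the gene of the cell-cycle inhibitor p21. They were chosen by their measured Cdkn1a level, in 2 pools of sorted mouse glioma cells, as the top 5% of each pool by Cdkn1a UMIs (unique molecular identifiers, 1 for each captured RNA molecule) over total UMIs. Only barcodes with at least 500 genes, at most 15% mitochondrial UMIs and at least 3000 UMIs took part. This gave 268 of 5370 cells, 137 of 2749 in pool 1 and 131 of 2621 in pool 2. All tumours came from C57BL/6 mice in which PDGFB, a ligand of the receptor Pdgfra, had been transferred before birth into the telencephalic ventricles. Tumours were collected some 40 days after birth and sorted for GFP. Each pool mixes cells of 2 tumours that were not told apart, there was no control group, and the labels give no further allele or agent. The only replicates are therefore the 2 pools, and p-values measure how far differences between cell states varied between them, not the spread between tumours.

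The protein p21 binds complexes of cyclins with cyclin-dependent kinases and halts the cell cycle, and it also binds the replication clamp PCNA. Its gene is a classic target of the transcription factor p53, which binds response elements near genes of cell-cycle arrest, apoptosis and DNA repair, and is kept low by the ubiquitin ligase Mdm2, itself a p53 target. Cdkn1a can also be induced without p53, among others by growth factor and TGF-beta signalling. Gliomas driven by PDGF resemble oligodendrocyte precursors, the dividing glial cells that carry Pdgfra.

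In GRCm38, Cdkn1a lies on the plus strand of chromosome 17, from 29090976 to 29100727. Among Cdkn1a and the p53 targets that were higher in Cdkn1a-high cells, 2 genes had a promoter window with a close match to the p53 consensus. These windows are shown to make the p53 list concrete, and capitals mark the match. They come from RefSeq (GRCm38.p6), run from 250 bases before a transcription start to 50 bases after, and are printed 5′ to 3′ on the gene's strand. Cdkn1a had 2 promoter windows, of which 1 held a match. That window is chr17:29090729-29091028 on the plus strand, and the match begins 51 bases before its start. The Ccng1 window is chr11:40755237-40755536 on the minus strand, and the match begins 195 bases before the start.
Cdkn1a: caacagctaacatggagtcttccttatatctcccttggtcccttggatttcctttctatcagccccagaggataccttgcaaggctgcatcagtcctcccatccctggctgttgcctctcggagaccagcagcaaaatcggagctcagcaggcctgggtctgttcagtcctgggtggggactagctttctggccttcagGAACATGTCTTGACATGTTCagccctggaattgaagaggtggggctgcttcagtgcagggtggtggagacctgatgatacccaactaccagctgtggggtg
Ccng1: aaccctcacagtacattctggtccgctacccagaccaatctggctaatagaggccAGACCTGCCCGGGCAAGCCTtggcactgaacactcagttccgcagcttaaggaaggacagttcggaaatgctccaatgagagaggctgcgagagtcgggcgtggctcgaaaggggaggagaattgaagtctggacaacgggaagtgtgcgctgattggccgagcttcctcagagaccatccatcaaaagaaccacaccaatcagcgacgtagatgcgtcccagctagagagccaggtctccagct
The search was for 2 directly joined p53 half-sites on either strand, with at most 2 mismatches and the central C and G of each half-site intact. Each of these matches had 1 mismatch. Such a match was found in 107 of 32851 promoter windows (0.326%). Of the 39 p53 targets fitted below, 31 had windows and 2 of these held a match, and of the 14 targets with windows that were higher in Cdkn1a-high cells, 1 held a match. A match in these letters is a description of the sequence and not evidence of binding.

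Pools 1 and 2 held 33.89 M and 40.91 M UMIs in 3843 and 3650 barcodes, 4 of which occurred in both, and cells taking part had medians of 9914 and 13118 UMIs. Pool 1 listed Xist and no Y-linked gene, and pool 2 listed 4 Y-linked genes and no Xist. The pools were also deposited under the names Day1 and Day2, whose meaning is not given in the sources used here. Differences between pools therefore cannot be told apart from differences in sex, in the named day or between tumours. At least 1 Cdkn1a UMI was found in 45.29% of cells in pool 1 and 54.22% in pool 2. In cells with RNA of microglia the shares were 40.0% (6 of 15, median 13755 UMIs) and 35.7% (5 of 14, median 15626.5 UMIs), and whether those UMIs are free RNA was not tested. Those cells with microglia RNA had Cdkn1a at 54.95 and 230.2 CPM (a gene's counts relative to all counts, scaled to the usual common total). By the rule that chose them, Cdkn1a-high cells held a median of 9 Cdkn1a UMIs (2 to 42) in pool 1 and of 15 (2 to 69) in pool 2, and together 32.22% and 31.13% of all Cdkn1a UMIs. At the border, the last cell inside had 10 Cdkn1a UMIs of 19320 in pool 1 and 4 of 6065 in pool 2. The first cell outside had 5 of 9661 and 22 of 33470.

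Cdkn1a-high cells were compared with Cdkn1a-zero cells, which had no Cdkn1a UMI, and with Cdkn1a-low cells, which had at least 1 but lay outside the top 5%. Both were matched to the Cdkn1a-high cells on total UMIs, with up to 2 cells for each. In pool 1 the 137 high, 272 low and 258 zero cells had median depths of 13196, 13291 and 13051.5 UMIs. In pool 2 the 131, 260 and 260 cells had 15732, 15486.5 and 15468 UMIs. Median mitochondrial shares were 2.34, 2.56 and 3.05% in pool 1 and 1.26, 1.14 and 1.31% in pool 2. The summed Cdkn1a level, which set the states and is not a finding, was 760.3 and 1075 CPM in high cells and 198 and 223 CPM in low cells.

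**Figure D1:**
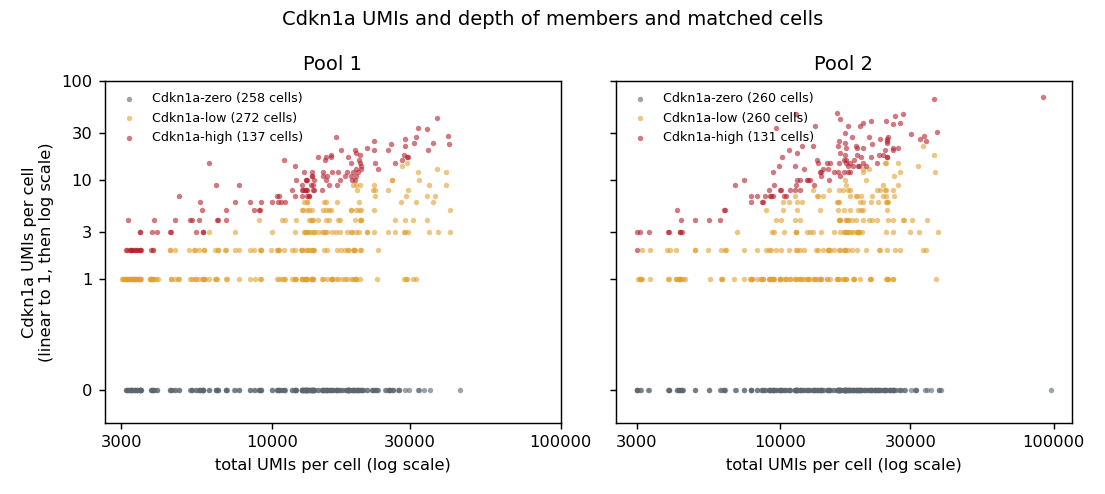
Cdkn1a UMIs per cell (vertical axis, linear to 1 and logarithmic above) against total UMIs per cell (logarithmic horizontal axis) for Cdkn1a-high cells and their matched low and zero cells, 1 point per cell, in pool 1 (left) and pool 2 (right). Depths overlap widely, though low cells of pool 2 end at 37673 UMIs where high cells reach 91274, and high cells hold 2 to 42 Cdkn1a UMIs in pool 1 and 2 to 69 in pool 2.

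By the marker counts used here, RNA of another cell type was found in 0 of 137 Cdkn1a-high cells of pool 1 and 16 of 131 of pool 2. Oligodendrocyte precursors also carry Pdgfra, and whether single cells were glioma cells was not tested. In pool 1, Pdgfra stood at 900.0 CPM and the lineage factor Olig2 at 535 CPM in high cells, the myelin gene Mog had no UMI and Mobp stood at 2.06 CPM. In pool 2, 16 of 131 high cells (12.2%, exact Clopper-Pearson 95% interval 7.15 to 19.1%) had UMIs of at least 5 of 13 oligodendrocyte markers. In 14 of them at least 11 markers were found, with Apod at 30060 CPM, Mal at 5986 CPM, Mobp at 3931 CPM and Mog at 1279 CPM, but Pdgfra at only 120.6 CPM. Cells with at least 11 of these markers were rare, 5 in pool 1 and 19 in pool 2. None of the 5 was Cdkn1a-high, against 14 of the 19, and those 14 had a Cdkn1a level of 2002 CPM. The other 115 high cells of pool 2 had no UMI of Mog, Mobp or Mal, 1.05 CPM of Apod, 977 CPM of Pdgfra and 467 CPM of Olig2. No high cell of either pool carried 3 or more microglia markers, against 3 zero cells in each pool, and none carried 3 or more endothelial or mural markers. For erythroid and for lymphoid and myeloid cells 1 pool listed only 2 markers, so that 3 could not be reached there. At least 5 oligodendrocyte markers were also found in 17 zero cells of pool 1 (6.59%) and 13 of pool 2 (5%). The whole oligodendrocyte list summed to 158 CPM in high and 2791 CPM in zero cells of pool 1, and to 11200 and 2313 CPM in pool 2, and the microglia list to 21.6 and 163 CPM and to 15.04 and 447 CPM. Main results were therefore recomputed without cells holding RNA of another cell type and without the cells of highest doublet score, which leaves 135 and 114 high cells, called the restricted cells.

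Across 12173 genes, 205 (1.68%) were higher and 169 (1.39%) lower in Cdkn1a-high than in Cdkn1a-zero cells at an adjusted p under 0.05 (edgeR quasi-likelihood F test with the pool as a block, Benjamini-Hochberg over all genes, Cdkn1a left out). At an unadjusted p under 0.05, 1348 (11.07%) were higher and 1219 (10.01%) lower. The median log2 fold change over all genes was 0.0023. In the restricted cells 533 were higher and 343 lower, and without the pool in the model 19 and 5.

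p53 targets were higher in Cdkn1a-high cells in both pools. Of 42 listed targets, which do not include Cdkn1a, 39 had enough counts to be fitted. Of these, 16 were higher and 0 lower, against 1.68% and 1.39% of all genes (3.07% in either direction), and 34 had a positive value. The median log2 fold change was 1.11 in the fit, 0.91 in pool 1 and 1.01 in pool 2. Summed over the list, high cells had 2823 CPM (exact Poisson 95% interval 2749 to 2898) in pool 1 and 2469 CPM (2403 to 2537) in pool 2. Zero cells had 1489 CPM (1448 to 1532) and 1436 CPM (1399 to 1473), so the states did not overlap between pools. In the restricted cells 25 of 39 were higher, and among cells without a UMI of 10 core cycling genes 10 of 27. With each cell thinned to 3000 UMIs 8 of 27 were higher, and the median log2 fold change was 0.61. Over all genes these settings gave 533, 191 and 185 higher, against 205 in the main fit. The 14 cells of pool 2 with most oligodendrocyte markers stood apart: their list level was 1248 CPM, against 2564 CPM in the 115 high cells with fewer than 5 markers.

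Among the targets that act on the p53 pathway itself or on growth, Ccng1, which encodes cyclin G1, stood at 124 and 95.4 CPM in high cells of pools 1 and 2 (the order of all paired values that follow), against 36.1 and 31.9 CPM in zero cells. Its log2 fold change was 1.77 ± 0.13 (SE; adjusted p = 0.00299). Phlda3, whose product restrains the kinase Akt, had 355 and 295.5 CPM against 153 and 131 CPM (1.29 ± 0.10, adjusted p = 0.0033). In both genes the lower high pool lay above the higher zero pool. Sesn2, a stress-induced inhibitor of mTORC1, had 52.4 and 31.9 CPM against 14.8 and 11.9 CPM (1.73 ± 0.20, adjusted p = 0.0114). Trp53inp1, a cofactor of p53, had 117 and 95.8 CPM against 52.7 and 40.6 CPM (1.29 ± 0.13, adjusted p = 0.00743). Zmat3, an RNA-binding protein, had 150.5 and 125 CPM against 85.2 and 81.2 CPM (0.82 ± 0.11), and Plk2, a polo-like kinase, had the smallest value of the 16 that passed (0.73 ± 0.11). Psrc1, a spindle-associated protein, differed in size between pools, with log2 values of 2.88 in pool 1 and 1.71 in pool 2.

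The death-related targets moved with them. Bax, the pore-forming protein of mitochondrial apoptosis, had 590.2 and 544 CPM in high cells against 297 and 299 CPM in zero cells (log2 1.02 ± 0.09, adjusted p = 0.00434). Bbc3, which encodes PUMA, had 59.6 and 36.2 CPM against 23.8 and 15.6 CPM (1.37 ± 0.15, adjusted p = 0.0114). Both genes were higher in each pool by a similar factor. Eda2r, a death-domain receptor of the TNF receptor family on the X chromosome, had 48.3 and 39.5 CPM against 10.8 and 8.02 CPM (2.32 ± 0.19, adjusted p = 0.00355). Apaf1, the core of the apoptosome (1.12 ± 0.19), Pidd1, a death-domain adaptor (1.96 ± 0.35), and Aen, a nuclease (1.27 ± 0.13), also passed. Of 18 apoptosis genes fitted, 5 were higher and 0 lower, against 1.68% and 1.39% of all genes. However, Bax, Bbc3 and Apaf1, among the 5, are also in the p53 list. The other 2 were Bcl2l1, which encodes the anti-apoptotic Bcl-xL (1.33 ± 0.22, adjusted p = 0.03), and Casp8, an initiator caspase named after its value was seen (2.30 ± 0.42, adjusted p = 0.0413). The metabolic targets Dcxr (1.76 ± 0.26), Ephx1 (1.27 ± 0.23) and Ak1 (1.32 ± 0.26) completed the 16.

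Other well-known targets did not pass. Mdm2 had 68.8 and 55.4 CPM in high cells, 45.3 and 40.3 CPM in low cells and 49.1 and 41.3 CPM in zero cells (log2 0.55 ± 0.12, adjusted p = 0.066), and it passed in the restricted cells (0.64, adjusted p = 0.0258). Rap2b, Polk, Ei24 and Gtse1 lay just past the threshold, with adjusted p between 0.0503 and 0.0553 and log2 values of 0.51, 1.13, 0.58 and 1.45. Gdf15, a secreted cytokine, was sparse, with 9 and 34 UMIs in high cells and 1 and 3 in zero cells (adjusted p = 0.0637). Sesn1 had a value of −0.22 ± 0.18 (adjusted p = 0.532). In single cells thinned to 3000 UMIs, the median number of listed targets with a UMI was 6, 5 and 4 in high, low and zero cells of pool 1, and 5, 4 and 3 in pool 2.

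**Figure D2:**
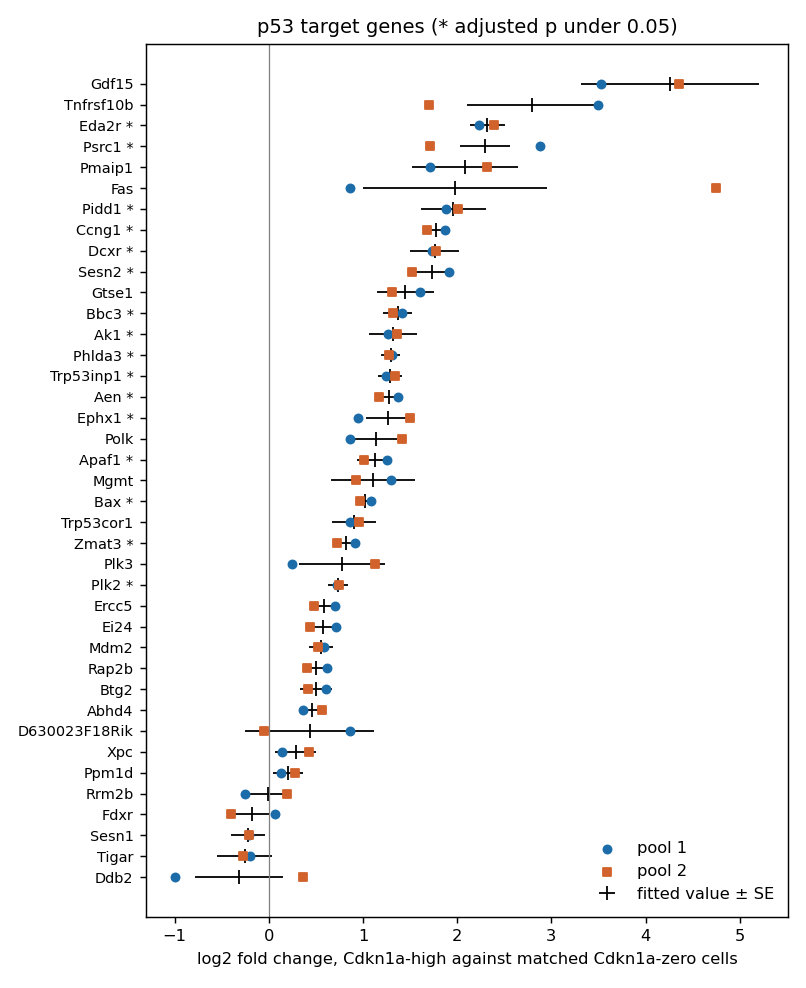
Log2 fold change of each of the 39 fitted p53 targets between Cdkn1a-high and matched Cdkn1a-zero cells (horizontal axis), with the value of each pool (points) and the fitted value with its SE (black); asterisks mark adjusted p under 0.05. The 16 marked genes lie to the right of 0 in both pools, from Plk2 at 0.73 to Eda2r at 2.32.

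Of the p53 pathway's own core, 10 of 12 listed genes were fitted. Among these, 1 was higher and 0 lower, against 1.68% and 1.39% of all genes. Trp53, which encodes p53, had 101.2 and 67.2 CPM in high cells against 53.9 and 50.6 CPM in zero cells (0.76 ± 0.15, adjusted p = 0.0466). The DNA damage kinases Atm (−0.52 ± 0.17) and Atr (−0.68 ± 0.20) did not pass (adjusted p = 0.138 and 0.117). Of 22 DNA repair genes fitted, 0 passed in either direction by edgeR, 5 were higher and 0 lower at an unadjusted p under 0.05, against 11.07% and 10.01% of all genes, and the median was 0.26.

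Of 7 other genes of cyclin-dependent kinase inhibitors 2 were higher and 0 lower, against 1.68% and 1.39% of all genes. Cdkn2a, whose locus encodes the kinase inhibitor p16 and the Mdm2 inhibitor p19Arf, had 96.6 and 139.5 CPM in high cells, 69.5 and 80.8 CPM in low cells and 28.0 and 44.2 CPM in zero cells (high against zero 1.81 ± 0.14, adjusted p = 0.00335). Cdkn2b, its neighbour encoding p15, had 89.9 and 161 CPM in high and 37.9 and 38.4 CPM in zero cells (1.77 ± 0.21, adjusted p = 0.0119). The levels of these genes in high cells lay above those in zero cells in both pools. The 3ʹ counts do not separate the products of Cdkn2a. Both held in the restricted cells (1.71 and 1.72), and in cells without core cycling UMIs (1.62 and 1.83). Cdkn2c and Cdkn2d had values of 0.88 and 0.87 and did not pass (adjusted p = 0.0978 and 0.0914), and Cdkn1b, which encodes p27, had 0.21 ± 0.11 (adjusted p = 0.352). Of 20 cyclin and kinase genes 0 passed in either direction by edgeR, with 8 higher and 1 lower at an unadjusted p under 0.05 (all genes 11.07% and 10.01%).

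In the main fit 0 S phase and 0 G2/M genes were called lower in Cdkn1a-high cells, and the pools differed. In pool 2 the summed S phase list was lower, as given below. A cell was called cycling when, after thinning to 3000 UMIs, it held UMIs of at least 2 of 10 core genes. In pool 1 this was 40.1% of high cells (55 of 137, exact Clopper-Pearson 95% interval 31.9 to 48.9%), 28.7% of low cells (23.4 to 34.4%) and 17.4% of zero cells (45 of 258, 13 to 22.6%). In pool 2 the shares were 16% (21 of 131, 10.2 to 23.5%), 16.2% (11.9 to 21.2%) and 16.9% (44 of 260, 12.6 to 22%). The difference between high and zero cells was thus 22.7 percentage points in pool 1 and −0.893 in pool 2, a mean of 10.9 ± 16.7 (SD, n = 2 pools), less than the spread between the pools. With 2 pools an exact permutation test cannot reach p under 0.05, so none was run. Without thinning the shares were 52.6 and 41.1% in pool 1 and 33.6 and 40.8% in pool 2. In the restricted cells the thinned shares were 39.3 and 17.8%, and 16.7 and 18.7%.

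Genes of G2 and mitosis also differed in size between the pools. Of 59 G2/M genes, 0 were lower and 0 higher by edgeR; at an unadjusted p under 0.05, 35 were higher and 0 lower, against 11.07% and 10.01% of all genes, and DESeq2 called 6 higher and 0 lower. By edgeR 9 were higher in the restricted cells, 12 of 56 with thinned counts, 15 with the top 10% and 19 without a filter on low counts. In each of these settings 0 were lower. Over all genes 533, 185, 664 and 454 were higher in these settings, against 205 in the main fit. Their median log2 fold change was 1.70 in pool 1 and 0.19 in pool 2. The list summed to 10690 CPM in high cells against 4037 CPM in zero cells of pool 1, and to 5277 against 4847 CPM in pool 2. Mki67, the proliferation marker, had 525 and 234 CPM in high cells and 170.5 and 182 CPM in zero cells (1.04 ± 0.31, adjusted p = 0.122). Top2a, which untangles chromosomes, had 715 and 282 CPM against 173 and 213 CPM (1.24 ± 0.39, adjusted p = 0.138). Ccnb1, the cyclin of mitotic entry, had log2 values of 2.06 in pool 1 and −0.40 in pool 2, and Cdk1, its kinase, 1.90 and 0.68.

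S phase genes were split. Of 56 genes, 2 were higher and 0 lower by edgeR (DESeq2 2 and 0), with medians of 0.53 in pool 1 and −0.35 in pool 2. In pool 1 the list summed to 2750 CPM (2677 to 2825) in high and 1945 CPM (1897 to 1993) in zero cells. In pool 2 it summed to 1353 CPM (1304 to 1403) in high and 1777 CPM (1737 to 1818) in zero cells. At an unadjusted p under 0.05, 8 of the 56 genes were higher and 1 lower, against 11.07% and 10.01% of all genes. With the top 10% of cells 17 were higher and 0 lower, with the top 2.5% 0 and 0, and in the restricted cells 2 and 1. Over all genes these settings gave 664 and 503, 83 and 71, and 533 and 343. Those that passed make deoxynucleotides: Rrm2, a subunit of ribonucleotide reductase, with 119 and 49.3 CPM in high and 34.0 and 21.4 CPM in zero cells (1.62 ± 0.18, adjusted p = 0.00959), and Tk1, thymidine kinase, with 37.5 and 20.2 CPM against 9.34 and 8.75 CPM (1.71 ± 0.26, adjusted p = 0.0241). Both were higher in each pool. Pcna, the replication clamp that p21 binds, had 173 and 95.4 CPM against 119.6 and 114.5 CPM (0.23 ± 0.19, adjusted p = 0.525), and Mcm5, of the replicative helicase, 47.8 and 16.9 CPM against 44.3 and 39.4 CPM (−0.38 ± 0.29). Rrm2 was the only one of the 10 core cycling genes that passed. Ccnd1, the cyclin of G1 progression, had 3338 and 2336 CPM against 2127 and 2250 CPM and did not pass (adjusted p = 0.119).

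The p53 list was also compared between cycling high cells and high cells with none of the 10 genes. It was at 2585 CPM in cycling and 3091 CPM in non-cycling high cells of pool 1, and at 2451 and 2456 CPM in pool 2. In zero cells it was at 1531 and 1525 CPM, and at 1443 and 1446 CPM. Cycling high cells thus lay above zero cells of either kind in both pools. The cycling high cells were deeper than the non-cycling ones, with medians of 16705 against 12409.5 UMIs in pool 1 and 19723 against 15104 in pool 2. The part of doublets was not tested beyond the restricted cells, since the doublet caller marked 0 and 2 cells where 98 and 86 were expected.

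**Figure D3:**
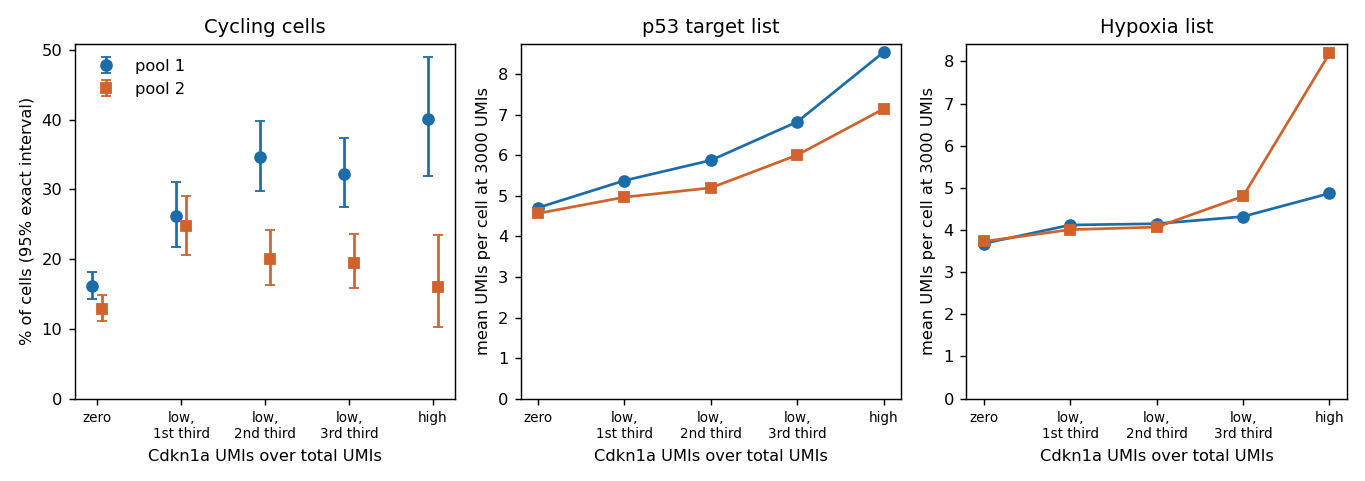
All cells at 3000 or more UMIs in 5 steps of Cdkn1a share (horizontal axis: zero, the low cells in 3 equal parts, high), after thinning each cell to 3000 UMIs, for pool 1 (circles) and pool 2 (squares). Left, the share of cycling cells with exact 95% intervals; middle and right, mean UMIs per cell of the p53 and hypoxia lists. Cycling ends at 40.1% in pool 1 and 16% in pool 2, the p53 list climbs at every step in both pools, and the hypoxia list ends at 4.87 and 8.19 UMIs.

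Over the finer steps of Cdkn1a share, the p53 list grew gradually. With all cells thinned to 3000 UMIs, its mean was 4.71 UMIs per cell in zero cells of pool 1, then 5.38, 5.88 and 6.83 in the 3 equal parts of low cells, and 8.55 in high cells. In pool 2 the means were 4.57, 4.97, 5.20, 6.01 and 7.15. No step reversed in either pool. The share of cycling cells behaved otherwise, with 16.2, 26.2, 34.7, 32.2 and 40.1% in pool 1 and 12.9, 24.7, 20, 19.5 and 16% in pool 2. In both pools, cells with a little Cdkn1a had a higher share of cycling than zero cells. This was without depth matching, and zero cells were shallower before thinning (medians 7506.5 and 10854.5 UMIs). Among the depth-matched cells the shares in low and zero cells were 28.7 and 17.4% in pool 1. In pool 2 they were 16.2 and 16.9%, so the higher share was not seen there.

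Of the 12 genes of largest fold among those higher in both pools with at least 20 CPM, 5 were replication-dependent histone genes, for which no list was tested. Hist1h1b, a linker histone, had 218 and 140.0 CPM in high cells, 111 and 60.9 CPM in low cells and 34.0 and 25.5 CPM in zero cells (high against zero 2.66 ± 0.14, adjusted p = 0.00114). Hist1h2ap had 414.5 and 219 CPM in high and 60.2 and 47.2 CPM in zero cells (2.59 ± 0.17), and Hist1h2ab (2.68 ± 0.26), Hist1h3c (2.46 ± 0.25) and Hist1h2ae (2.46 ± 0.14) were also higher. These genes have near-identical copies, so the counts of single copies are uncertain. A higher value in both pools was a condition for this group of 12, so it is not a separate result for these 5 genes. Among cells without core cycling UMIs, Hist1h2ap had a log2 fold change of −0.54 (adjusted p = 0.786). The other histone genes of this group were not fitted in those cells.

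The other 7 genes of that group had varied roles. S100a10, a partner of annexin A2, had 118 and 319 CPM in high, 63.3 and 137 CPM in low and 22.9 and 40.6 CPM in zero cells (2.81 ± 0.16, adjusted p = 0.00134). Hmga2, an architectural chromatin protein of growing embryonic tissue, had 94.5 and 108 CPM in high and 17.5 and 18.2 CPM in zero cells (2.60 ± 0.14, adjusted p = 0.00114). Both were ordered zero, low, high in each pool. Vgf, a secreted neuropeptide precursor, had 80.7 and 170.1 CPM against 15.96 and 33.3 CPM (2.44 ± 0.12, adjusted p = 0.00114). Lgals1, which encodes galectin-1 (2.33 ± 0.19), Col18a1, a basement membrane collagen (2.33 ± 0.24), and Sdc4, a cell surface proteoglycan (2.61 ± 0.39), were also higher. Gm15417 had the largest value (3.12 ± 0.23), but it is annotated antisense to Zbtb7b and overlaps it, and whether counting used strand is not given in the sources used here.

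S100a10 and Lgals1 belong to a list of mesenchymal-like glioma genes, of which 23 of 29 were fitted. Of these 23, 8 were higher and 2 lower, against 1.68% and 1.39% of all genes. The list's median was 0.92 (0.66 in pool 1 and 0.997 in pool 2). Pdlim4, an actin-associated protein (1.69 ± 0.15), and Tubb6, a tubulin (1.55 ± 0.14), were among those higher. In the restricted cells 14 of 22 were higher and 3 lower, against 533 and 343 over all genes. Cd44, the hyaluronan receptor and another member, named after its value was seen, rose from 2 and 9 UMIs in zero cells to 16 and 38 UMIs in the fewer high cells (3.31 ± 0.41, adjusted p = 0.0135).

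**Figure D4:**
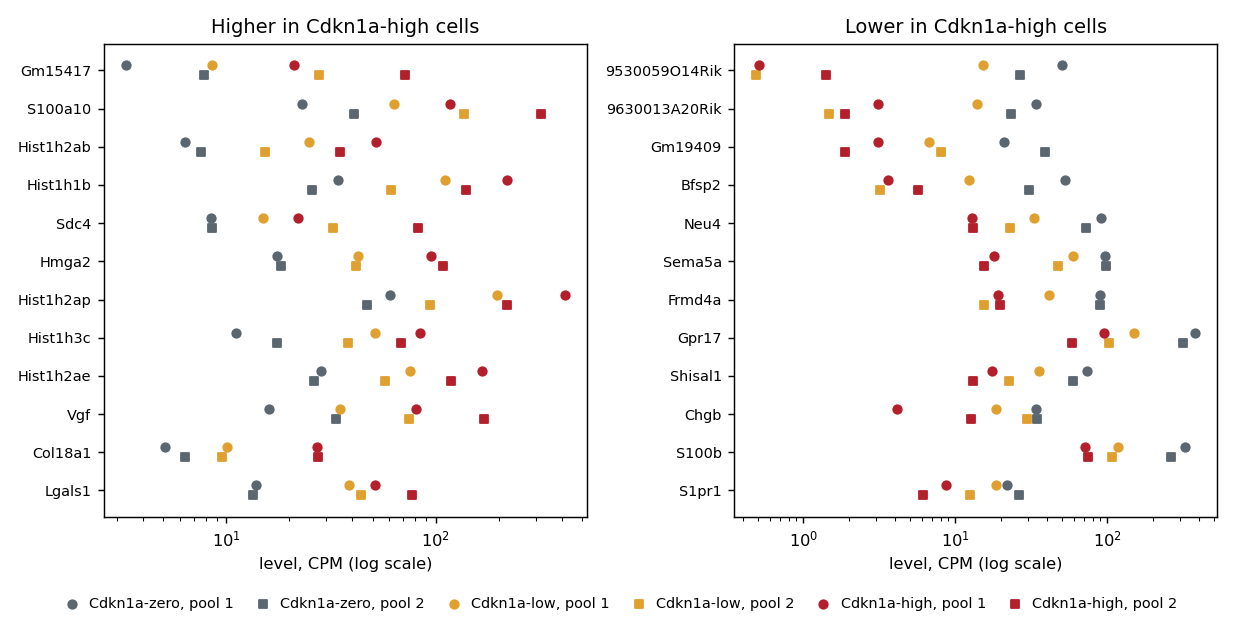
Levels in CPM (logarithmic axis) of the 12 genes of largest fold that were higher (left) and lower (right) in Cdkn1a-high than in Cdkn1a-zero cells, for each state (colour) and pool (circles, pool 1; squares, pool 2). For S100a10, zero cells sit at 22.9 and 40.6 CPM and high cells at 118 and 319 CPM; for Gpr17, zero cells sit at 380.1 and 316 CPM and high cells at 95.03 and 58.3 CPM. The plotted genes 9530059O14Rik, 9630013A20Rik, Bfsp2 and Frmd4a did not pass in the restricted cells (adjusted p = 0.103, 0.106, 0.591 and 0.565).

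Genes of oligodendrocyte precursors and of their first steps of differentiation were mostly lower in the fit, though the summed list of committed precursors was not lower in pool 2. Of 20 precursor genes 8 were lower and 0 higher, against 1.39% of all genes lower, with a median of −0.47, and all 20 had negative values in the fit. Gpr17, a receptor of precursors about to differentiate, had 95.03 and 58.3 CPM in high, 150.3 and 102 CPM in low and 380.1 and 316 CPM in zero cells (high against zero −2.12 ± 0.13, adjusted p = 0.00175). Neu4, a sialidase, had 12.8 and 13.2 CPM in high and 91.0 and 72.2 CPM in zero cells (−2.54 ± 0.18, adjusted p = 0.00244). Neither gene overlapped between the states. The matrix protein gene Tnr (−0.83 ± 0.09) and Luzp2 (−0.87 ± 0.10) were also lower. Pdgfra, the receptor of the driving ligand, had 900.0 and 894 CPM against 1163 and 1338 CPM and did not pass (−0.38 ± 0.08, adjusted p = 0.0637), nor did Cspg4, which encodes NG2 (−0.44 ± 0.12, adjusted p = 0.0879). In the restricted cells 14 of 20 precursor genes were lower, against 343 over all genes. Gpr17 and Neu4 had values of −1.64 and −2.15 there.

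Of 17 genes of committed precursors 6 were lower and 0 higher, against 1.39% and 1.68% of all genes. The list's median was −1.03 (−1.90 in pool 1 and −0.90 in pool 2). Its sum was 826 CPM in high against 4576 CPM in zero cells of pool 1. In pool 2 the sum went the other way, with 4700 CPM in high against 3812 CPM in zero cells. The quartiles over single cells of pool 2 did not, with 611, 1017 and 1377 CPM in high and 925, 1273 and 1713 CPM in zero cells. In pool 1 the medians over cells were 769 CPM in high and 1320 CPM in zero cells, so the median high cell was lower in both pools. UMIs of Bmp4, Enpp6 or Bfsp2, genes of cells leaving the precursor state, were found in 6.57% of high and 15.9% of zero cells in pool 1, and in 13% and 10.4% in pool 2. In the restricted cells 7 of 16 listed genes were lower, against 343 over all genes, and the list's median was −0.64. Without all cells holding Bmp4, Enpp6 or Bfsp2 UMIs 3 of 13 were lower, against 215 over all genes, and the median was −0.33. Sirt2, a deacetylase of myelinating cells, kept its direction (−1.48 ± 0.16 with them, −0.52 without, adjusted p = 0.0215). Tcf7l2, a transcription factor of differentiation, did not pass without them (−1.36 against −0.33, adjusted p = 0.245), and Frmd4a, a scaffold of cell polarity outside the list, changed sign, from −2.12 to 0.62 (adjusted p = 0.239). Sema5a, a guidance molecule, had 17.98 and 15.5 CPM in high and 96.7 and 97.2 CPM in zero cells (−2.44 ± 0.16, adjusted p = 0.0018). S100b, a calcium-binding protein shared by astrocytes and differentiating precursors, had 70.9 and 74.2 CPM against 322 and 264 CPM (−1.91 ± 0.12, adjusted p = 0.0018).

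Hypoxia genes differed mainly in pool 2. Of 26 fitted of 31 listed, 5 were higher and 0 lower, against 1.68% and 1.39% of all genes. The list's median was 0.81 in the fit, 0.31 in pool 1 and 1.40 in pool 2. The list stood at 1655 CPM in high cells of pool 1 (1598 to 1713) against 1423 CPM (1383 to 1464) in zero cells, and at 2786 CPM (2716 to 2858) against 1315 CPM (1280 to 1350) in pool 2. Vegfa, the angiogenic factor, had 68.8 and 180.4 CPM in high cells against 32.8 and 21.4 CPM in zero cells (2.22 ± 0.40, adjusted p = 0.0392). Adm, the vasodilator adrenomedullin, had 18.5 and 52.6 CPM against 8.13 and 14.1 CPM (1.72 ± 0.23). Mif, a cytokine, Ddit4, an inhibitor of mTORC1, and Fam162a passed with values of 0.75, 1.22 and 0.87. Among the restricted cells 10 of 25 were higher and 0 lower, against 533 and 343 over all genes. In pool 2 the quartiles over high cells were 1325, 1690 and 2941 CPM, and those over zero cells 937, 1202 and 1475 CPM, so that the median high cell lay above the upper quartile of zero cells. The 115 high cells of pool 2 with fewer than 5 oligodendrocyte markers had 2737 CPM, and the 16 others 3201 CPM. In pool 2, non-cycling high cells had 3343 CPM of the list and cycling ones 1627 CPM.

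**Figure D5:**
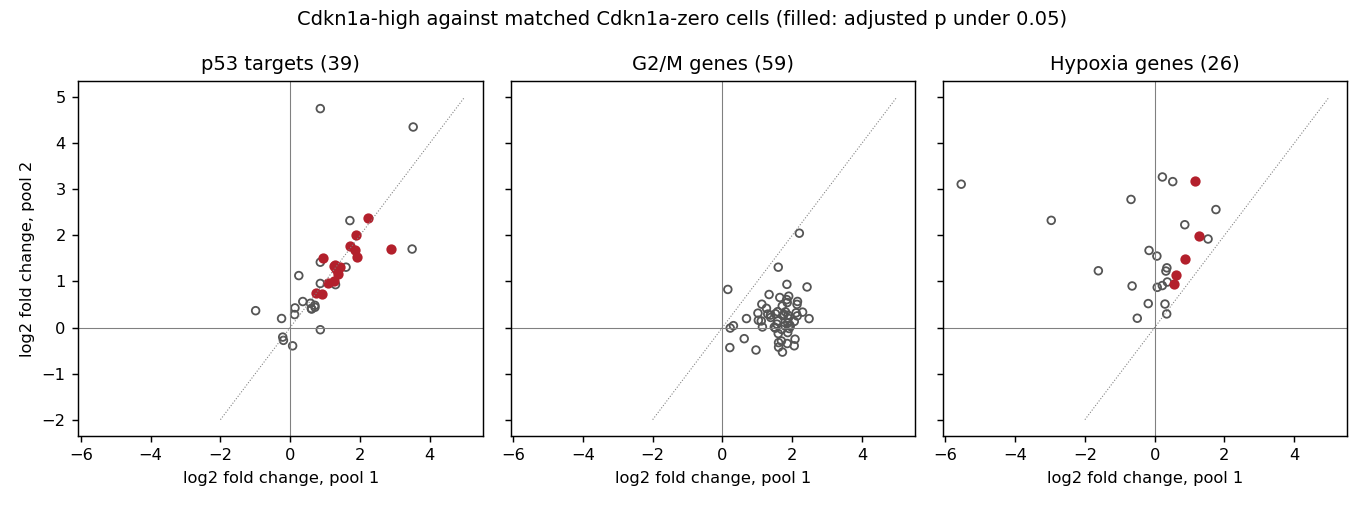
Log2 fold change between Cdkn1a-high and matched Cdkn1a-zero cells in pool 1 (horizontal axis) and pool 2 (vertical axis) for the fitted genes of 3 lists, 1 point per gene; filled points have an adjusted p under 0.05 and the dotted line marks equal values. p53 targets scatter about the line (medians 0.91 and 1.01), G2/M genes lie to the right (1.70 and 0.19), and hypoxia genes lie above it (0.31 and 1.40).

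Stress and signalling lists gave between 0 and 5 calls each, to be read against 1.68% of all genes higher. Of 30 genes of the integrated stress and unfolded protein responses 5 were higher and 0 lower: Eif4ebp1, a brake on translation, had 56.5 and 50.3 CPM against 15.4 and 13.6 CPM (1.98 ± 0.17, adjusted p = 0.00458), and Asns, asparagine synthetase, 81.2 and 62.0 CPM against 40.1 and 32.1 CPM (1.08 ± 0.14, adjusted p = 0.0141). Atf5, a transcription factor of that response (1.30 ± 0.17), and Sesn2 were among them. Interferon genes had a median of 1.32 in the fit, 0.01 in pool 1 and 1.73 in pool 2, but 1 of 20 passed, Xaf1 (2.29 ± 0.42, adjusted p = 0.0393), an apoptosis cofactor. Within the restricted cells Ifit3, an antiviral effector (2.83, adjusted p = 0.0342), and Usp18, a brake on interferon signalling (3.33, adjusted p = 0.0109), passed as well. Of 13 MHC class I genes 1 passed, the peptide transporter Tap1 (1.88 ± 0.31, adjusted p = 0.03). Of 16 MAPK output genes 2 were higher, Phlda1 (0.90 ± 0.09, adjusted p = 0.00771) and the feedback inhibitor Spry2 (0.50 ± 0.10, adjusted p = 0.0479). Of 26 immediate early genes 1 was higher, the AP-1 subunit Fosl2 (2.46 ± 0.38), of 14 heat shock genes 1, the co-chaperone Bag3 (1.14 ± 0.22), and of 18 secreted factors of senescent cells 1, Vegfa. No member of these lists was lower. Of 9 TGF-beta and SMAD targets 0 passed by edgeR, with 3 higher and 0 lower at an unadjusted p under 0.05 (all genes 11.07% and 10.01%) and a median of 0.13.

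Between Cdkn1a-low and Cdkn1a-zero cells 8 genes passed (0.0657% of those fitted, 0.0329% in each direction): S100a10 (1.66), Hist1h1b (1.51), Hist1h2ae (1.29) and Vgf (1.17) were higher, and Neu4 (−1.54), Gpr17 (−1.47), S100b (−1.36) and Pdcd4, an inhibitor of translation (−1.09), were lower. Between high and low cells 0 of 12173 genes passed by edgeR. At an unadjusted p under 0.05, 661 were higher and 546 lower, and DESeq2 called 12. Among the 5 genes of smallest p in each direction were Gadd45g, a stress-response gene (1.71, adjusted p = 0.0738), Hmga2 (1.34, adjusted p = 0.073) and Sema5a (−1.60, adjusted p = 0.0738). For p53 targets the median log2 fold change was 0.61 between high and low cells and 0.34 between low and zero cells.

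Among the Cdkn1a-high cells themselves, the p53 list had Spearman correlations near 0 with the hypoxia and G2/M lists and positive ones with the mesenchymal-like list. As a description over cells of 1 library each, which differ in depth (3102 to 41122 UMIs in pool 1 and 3003 to 91274 in pool 2), its Spearman correlation was 0.0210 with the hypoxia list and −0.0943 with the G2/M list over 137 cells of pool 1, and −0.0389 and −0.0310 over 131 cells of pool 2. With the mesenchymal-like list it was 0.178 and 0.446, and with Cdkn1a itself 0.276 and 0.0616. The cells between the lower and the upper quartile spanned 2160 to 3379 CPM of the p53 list in pool 1 and 1709 to 2908 CPM in pool 2.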

How the data were processed

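Droplet single-cell RNA was measured in 2 pools (10x Genomics 3ʹ kit version 3.1, 4000 cells used for each, per the labels). The deposited matrices hold whole UMI counts for each gene in each barcode, not normalized, made by the authors with Cell Ranger 6.0.2 on GRCm38/mm10, per the submitters' processing notes; further filters: not given in the sources used here. Of 18366 symbols, 18074 (98.41%) matched GENCODE vM21.

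Members and gene lists were chosen with earlier results of these data known. Each Cdkn1a-high cell was matched to up to 2 low and 2 zero cells within 10% of its total UMIs, none used more than once. Counts were summed per pool and state (6 libraries) and fitted with edgeR 4.0.16 in R 4.3.3 (quasi-likelihood, pool as block, 2 residual degrees of freedom, TMM, filterByExpr by state, Benjamini-Hochberg over 12173 genes, threshold 0.05), checked on simulated data. The block is used because the states of a pool come from the same tumours. SE is the log2 fold change over the root of F; values per pool use a prior count of 0.5. Levels computed from these counts are CPM with exact Poisson intervals and shares have exact Clopper-Pearson intervals, both covering counting error only. Cells were thinned at random to 3000 UMIs for cycling calls. Scrublet (scanpy 1.11.5) marked 0 and 2 doublets where 98 (2.8%) and 86 (2.62%) were expected, so doublets were not effectively removed and cells of highest score were left out as an alternative. Named genes were the 12 of largest fold each way (adjusted p under 0.05, same sign in both pools, at least 20 CPM in the higher state of both pools), the p53 targets that passed and the 4 next, up to 4 genes per other list by smallest p, the core cycling genes, and, from the other comparisons, where fewer than 5 genes passed each way, the 5 of smallest p each way; further names are values of list members. Alternatives were the block, RLE factors, DESeq2 1.42.0, the filter on low counts, the top 2.5% or 10%, thinned counts, 1 matched cell, the restricted cells, cells without core cycling UMIs and, added after seeing the data, cells without Bmp4, Enpp6 or Bfsp2 UMIs.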

Additional observations from a re-analysis of the deposited data

How the results depend on the processing

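Depth, the 2 pools and the matching limit these results. Without the pool (replicate) block 19 genes were higher and 5 lower between high and zero cells, p53 targets higher numbered 3 and 0 genes differed between low and zero cells, so most calls rest on the pairing of states within a pool. No filter on low counts gave 454 and 377, and the top 2.5% 83 and 71. The top 10% gave 664 and 503, and the restricted cells 533 and 343. Cells without core cycling UMIs gave 191 and 111, and thinned counts 185 and 133. p53 targets higher were 8 with thinned counts, 25 in the restricted cells and 10 in cells without core cycling UMIs. S phase genes lower were 1 in the restricted cells. Between high and low cells the counts were 12 with DESeq2, 40 without a filter, 8 with the top 2.5%, 1 with the top 10%, 23 with thinned counts, 9 with 1 matched cell, 27 in the restricted cells, 59 without core cycling UMIs and 3 without Bmp4, Enpp6 or Bfsp2 cells. Between low and zero cells they were 39, 81, 0, 0, 27, 18, 13, 24 and 3 in the same order. The cause of these shifts was not tested. The difference in cycling share kept its sign in the mean of the pools and ran from −0.893 to 22.7 points when 1 pool was left out.

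Of 115 named genes, 67 passed in the main analysis. Signs reversed for Hist1h2ap (−0.54) and Hmgb2 (−0.0077) in cells without core cycling UMIs, Frmd4a in the restricted cells (0.27) and without Bmp4, Enpp6 or Bfsp2 cells (0.62), Id3 (0.35) in the latter, Mcm5 (0.40) with the top 10%, Pcna (−0.17) and Hspa1a (0.0644) with the top 2.5%, and Ercc5 (−0.13) with thinned counts; the cause was not tested. A fit by sex within a pool was not run, because each pool listed either Xist or Y-linked genes.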
